A study of Mus musculus with 6 samples.

Results

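The genes described here are 53 cytochrome P450 genes of families 1 to 4 and of bile acid synthesis, out of 54532 gene identifiers in the count table. They were taken by symbol, and Cyp2c44 by its synonym Cyp2c23. Messenger RNA was sequenced from the epididymal white fat pad of mice that had eaten a high-fat diet for 16 weeks. The knockout group (PD-1fl/fl Lyz2-Cre, 3 libraries) lacked PD-1 in the cells in which the Lyz2 promoter drives Cre, which are macrophages and their myeloid relatives. Controls (3 libraries) were littermates with the same floxed PD-1 alleles and no Cre, so that every mouse carried the floxed allele and every mouse ate the high-fat diet. PD-1 is an inhibitory receptor of immune cells, and the comparison addresses what its loss in macrophages does to the obese fat pad. Whether each library is 1 animal is not stated in the labels, and p-values here refer to the spread among libraries.

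Cytochrome P450 enzymes are heme proteins of the endoplasmic reticulum or mitochondria that put an oxygen atom into a lipid, steroid, drug or pollutant, with electrons from the reductase Por. The liver is the main site of the drug-metabolising families and of bile acid synthesis. Nuclear receptors such as Nr1i2 (PXR), Nr1i3 (CAR), Nr1h4 (FXR) and Ppara, and the aryl hydrocarbon receptor Ahr, switch many of these genes on. Fat expresses a smaller set, which includes Cyp2e1 in adipocytes, and Cyp1b1 in stromal cells.

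Library totals were 20108185 to 27225533 counts. Replicate numbers follow the sample records. Alb, the albumin gene of hepatocytes, took 8.27% of the counts of control replicate 2 and 0.436% of those of control replicate 3. Its share in knockout replicates 1 to 3 was 0.0004835%, 0.0817% and 0.00617%. Control replicate 1 held 0.0007236%. Adipoq, the adiponectin gene of adipocytes, stood at 11.2 CPM (counts relative to the size of the library) in control replicate 2 and at 817 to 3649 CPM in the other 5 libraries. The library labelled control replicate 2 thus went against its tissue label, and the main results are given with and without it. Pdcd1, which encodes PD-1, had 19, 19 and 5 counts in the knockout libraries and 13, 0 and 0 in the controls, a level too low in whole tissue to check the genotype labels. All CPM values here are scaled by TMM (trimmed mean of M values), whose factor of 0.559 for control replicate 2, against 0.982 to 1.25 for the others, raises its CPM relative to its total count.

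Of the 53 genes, 42 matched a promoter window in the RefSeq table (build GRCm38.p6). The stretches of 250 bases before the RefSeq transcription start are printed for 6 of them. Cyp2e1, Cyp4b1 and Cyp1b1 are fat P450 genes with a window, and Cyp2d9 was the most abundant gene seen only beside liver transcripts. Cyp2a4 and Cyp2a5 have near-identical windows. Of the distinct stretches of 50 bases in the Cyp2a4 transcript, 36.06% also stand in Cyp2a5, so the counting may mix some of their reads. Cyp2d22 and Cyp2u1, whose knockout and control levels did not overlap in CPM, matched no window. Capitals mark matches, on either strand, to 6 sets of letters. These are TATAAA, the core promoter box, GTTAAT, a half-site of the liver factor HNF1, and AAAGTCCA, a core of the liver factor HNF4. The others are AGGTCA, the half-site of nuclear receptors, TTGCNNAA, a site of the C/EBP factors, and GCGTG, the core of the aryl hydrocarbon receptor site. The search allowed overlaps between motifs.
Cyp2e1, chr7:140763569-140763818, plus strand: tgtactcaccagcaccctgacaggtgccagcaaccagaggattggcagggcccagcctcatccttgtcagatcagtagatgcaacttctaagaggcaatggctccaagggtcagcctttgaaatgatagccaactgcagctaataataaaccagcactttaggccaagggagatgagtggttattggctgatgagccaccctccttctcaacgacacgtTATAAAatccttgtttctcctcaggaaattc
Cyp4b1, chr4:115647722-115647971, minus strand: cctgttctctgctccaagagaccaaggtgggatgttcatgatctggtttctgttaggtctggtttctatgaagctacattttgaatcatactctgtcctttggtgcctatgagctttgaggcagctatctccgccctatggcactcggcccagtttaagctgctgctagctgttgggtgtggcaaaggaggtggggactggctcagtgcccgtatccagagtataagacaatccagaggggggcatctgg
Cyp1b1, chr17:79715062-79715311, minus strand: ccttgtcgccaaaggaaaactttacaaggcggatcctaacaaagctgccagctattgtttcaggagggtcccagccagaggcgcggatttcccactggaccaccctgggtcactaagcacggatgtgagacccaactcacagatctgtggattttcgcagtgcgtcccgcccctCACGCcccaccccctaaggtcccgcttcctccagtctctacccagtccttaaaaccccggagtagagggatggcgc
Cyp2d9, chr15:82452127-82452376, plus strand: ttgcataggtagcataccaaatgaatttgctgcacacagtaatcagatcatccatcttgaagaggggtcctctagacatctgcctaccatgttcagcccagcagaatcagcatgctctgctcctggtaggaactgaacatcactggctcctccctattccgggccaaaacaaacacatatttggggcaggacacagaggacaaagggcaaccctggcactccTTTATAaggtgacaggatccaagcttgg
Cyp2a4, chr7:26306942-26307191, plus strand: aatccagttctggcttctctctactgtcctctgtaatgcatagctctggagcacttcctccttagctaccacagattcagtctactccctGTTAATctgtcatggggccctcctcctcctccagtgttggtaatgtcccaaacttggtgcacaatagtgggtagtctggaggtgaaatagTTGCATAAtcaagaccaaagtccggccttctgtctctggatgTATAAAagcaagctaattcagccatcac
Cyp2a5, chr7:26835089-26835338, plus strand: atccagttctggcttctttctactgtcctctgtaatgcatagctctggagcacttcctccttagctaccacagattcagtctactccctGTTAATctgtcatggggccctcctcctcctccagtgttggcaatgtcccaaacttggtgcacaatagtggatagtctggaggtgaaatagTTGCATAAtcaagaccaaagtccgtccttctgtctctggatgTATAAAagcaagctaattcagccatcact

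TATAAA began 31 bases before the start in Cyp2e1, and its reverse complement 28 bases before it in Cyp2d9. In Cyp4b1 no searched motif was matched in this stretch, and in Cyp1b1 the reverse complement of GCGTG began 76 bases before the start. Over the windows of 300 bases, which run to 50 bases after the start, TATAAA was matched in 14 of 20 genes seen only beside liver transcripts and in 2 of 9 genes seen in all fat libraries (Cyp2e1 and Cyp2c70), against 14.16% of all 27025 windows. TTGCNNAA was matched in 6 of the 20 and 0 of the 9 (10.75% of all windows), AAAGTCCA in 4 and 1 (1.25%), GTTAAT in 4 and 0 (7.2%), and AGGTCA in 7 and 1 (16.04%). GCGTG was matched in 1 of the 20 and 3 of the 9 (Cyp1b1, Cyp2r1 and Cyp4v3), against 32.46% of all windows. These matches are descriptions of the letters in these windows. Cyp2a4 and Cyp2a5 were identical at 294 of 301 aligned positions of their windows (97.7%), and both held GTTAAT, TTGCNNAA and TATAAA at the same spacing.

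A gene was taken as seen in a library at 10 or more counts. By that rule 12 genes were seen in every library other than control replicate 2 and are called the fat genes here. A further 25 were under 10 counts in knockout replicates 1 and 3 and control replicate 1 and reached 10 only where Alb was high, in knockout replicate 2 or control replicates 2 and 3. The remaining genes were 13 intermediate ones and 3 undetected ones, Cyp3a16, Cyp3a41a and Cyp3a44. At 3 counts in place of 10, the fat genes numbered 19 and the liver-only genes 15. At 30 counts they numbered 11 and 32, and at 0.5 CPM 12 and 28. With knockout replicate 3 no longer required to be under 10 counts, the liver-only genes numbered 32 and the intermediate ones 6. The fat genes held 4 of the 5 genes of subfamilies 2E, 2J, 2R and 2U, 3 of 9 of family 4 and 2 of 5 bile acid and oxysterol genes. They held 1 of 13 genes of subfamily 2C and none of the 7 genes of subfamily 3A. These classes were made from the counts themselves and carry no test.

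**Figure D1:**
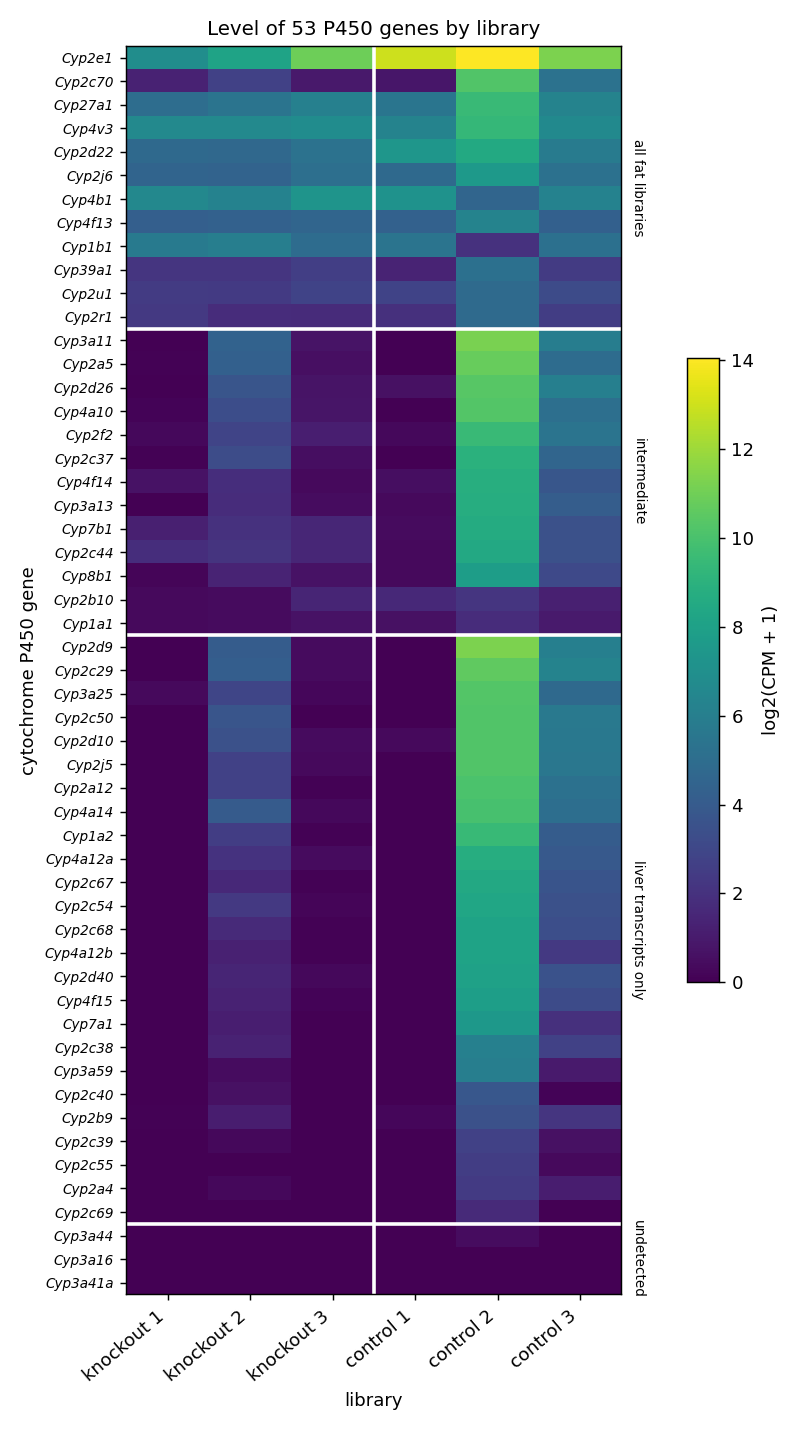
Level of each of the 53 P450 genes (rows, ordered by class and by highest level) in each library (columns), as log2(CPM + 1) in colour. Most of the 12 fat genes are coloured in every library, but Cyp2c70 is under 1 CPM in control replicate 1 and knockout replicate 3. Most of the 25 liver-only genes are bright in control replicate 2, fainter in control replicate 3 and knockout replicate 2, and near 0 elsewhere. Cyp2a4, Cyp2c39, Cyp2c55 and Cyp2c69 are low throughout, with 2.15 to 5.55 CPM in control replicate 2.

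Cyp2e1, which oxidises ethanol, acetone and fatty acids, was the most abundant of the 53 genes in every library. It had 118, 286 and 1991 CPM in knockout replicates 1 to 3 and 8089, 16960 and 2471 CPM in control replicates 1 to 3. The groups did not overlap, but knockout replicate 3 and control replicate 3, whose titles carry the highest numbers, lay close together, and the other 4 libraries lay far apart. The group means were 798 ± 1036 CPM in knockouts and 9172 ± 7303 CPM in controls (SD, n = 3 each). In edgeR's quasi-likelihood test the log2 fold change, knockout over control, was -3.52 with a standard error (SE) of 1.38 and a Benjamini-Hochberg adjusted p of 0.560. With control replicate 2 left out it was -2.74 (SE 1.22, adjusted p = 0.567 by edgeR), so this gene passed neither edgeR test. DESeq2 gave an adjusted p of 0.0433 with all 6 libraries and 0.432 without control replicate 2. In control replicate 1, where Alb was near 0, Cyp2e1 stood at 3253 FPKM (the authors' values, fragments relative to transcript length and library size) and made up 95.6% of the FPKM of all 53 genes. It made up 31.6%, 39.8% and 84.2% of them in knockout replicates 1 to 3.

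Outside control replicate 2, adipocyte markers were lowest, and macrophage and fibroblast markers highest, in the 2 libraries in which Cyp2e1 was lowest. In control replicate 2, where Cyp2e1 was highest, the sums of all 3 sets of markers were lowest. The 15 adipocyte markers summed to 37400, 30340 and 64000 CPM in knockout replicates 1 to 3 and 74340, 1672 and 45790 CPM in control replicates 1 to 3, and none of them was at 0 in any library. Outside control replicate 2 their sum was lowest in the 2 libraries in which Cyp2e1 was lowest. The 12 macrophage markers summed to 4120, 5147 and 1143 CPM in knockouts and to 908, 385 and 889 CPM in controls, none at 0, and were highest in those same 2 libraries. So were the 11 markers of fibroblasts and adipose progenitors, with 3788, 9254 and 2252 CPM in knockouts and 1433, 562 and 2444 CPM in controls, none at 0. Their part in the result was not tested, and in whole tissue fewer cells of a type and less RNA per cell cannot be told apart. Markers of the kidney tubule, and of the epididymis epithelium next to this fat pad, summed to at most 7.48 and 39.3 CPM in any library.

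Cyp2d22, a mouse relative of the drug-metabolising human CYP2D6, was low in all 3 knockouts. It had 26.4, 25.8 and 38.0 CPM in knockout replicates 1 to 3 and 163, 375 and 57.5 CPM in control replicates 1 to 3. The knockouts lay within a narrow range (30.1 ± 6.90 CPM, SD, n = 3) below every control (198 ± 162 CPM, SD, n = 3). The log2 fold change was -2.72 (SE 0.71, adjusted p = 0.560 by edgeR) and, without control replicate 2, -1.87 (SE 0.47, adjusted p = 0.540 by edgeR). DESeq2 passed its threshold of 0.05 for this gene in both sets of libraries, with -2.77 (SE 0.73, adjusted p = 0.0133) with all 6 and -1.88 (SE 0.52, adjusted p = 0.0174) without control replicate 2. The call therefore depended on the tool. Its raw count in control replicate 1, 4352, was near the 4188 of control replicate 2, although Alb was near 0 in the former. Relative to total counts, control replicate 1 stood at 76.75% of control replicate 2.

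Cyp2u1, which hydroxylates long-chain fatty acids, was the third gene whose groups did not overlap in CPM. Of all genes tested, 5.61% had knockouts below every control in this way. It had 4.48, 4.24 and 5.98 CPM in knockouts and 5.99, 28.3 and 8.21 CPM in controls, so that knockout replicate 3 and control replicate 1 nearly met. By the authors' FPKM values the groups of Cyp2u1 overlapped, with 0.9954 in knockout replicate 3 and 0.9922 in control replicate 1. The log2 fold change was -1.53 (SE 0.66, adjusted p = 0.560) with all 6 libraries and -0.53 (SE 0.35, adjusted p = 0.676) without control replicate 2, both by edgeR. An antisense gene, 4930534D22Rik, overlaps its exons, and reads of the pair cannot be told apart without the strand setting.

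Cyp4b1 and Cyp1b1 were the only 2 of the 12 fat genes that were lowest in control replicate 2. Cyp4b1, which oxidises fatty acids and furans and is found in lung, kidney and fat, had 92.4, 74.2 and 156 CPM in knockouts and 143, 23.3 and 74.3 CPM in controls. Cyp1b1, which oxidises oestrogens and polycyclic hydrocarbons and is a target of Ahr, had 54.6, 64.3 and 30.4 CPM in knockouts and 41.3, 3.04 and 34.8 CPM in controls. The groups of both genes overlapped. Their log2 fold changes with all 6 libraries were 0.42 (SE 0.67) and 0.91 (SE 0.86). With that library left out they were -0.02 (SE 0.44) and 0.40 (SE 0.37), and no adjusted p by edgeR was under 0.768. Next to Cyp2e1, Cyp4b1 had the highest level per length in 4 libraries, with 36.5, 30.2, 60.5 and 55.2 FPKM in knockout replicates 1 to 3 and control replicate 1.

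**Figure D2:**
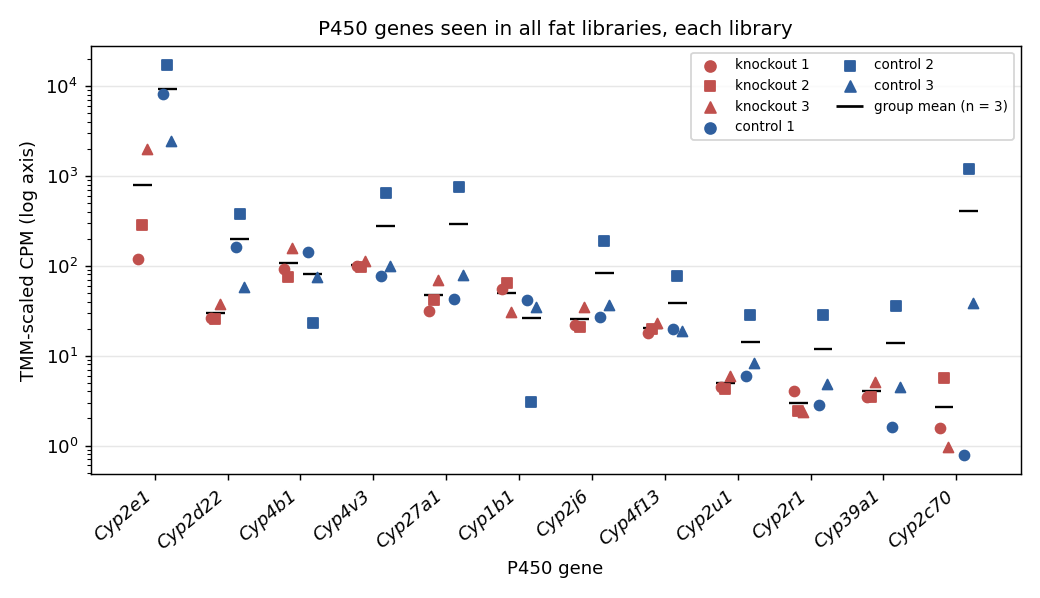
TMM-scaled CPM (log axis) of the 12 fat genes in each of the 6 libraries, with black bars for the group means (n = 3). Cyp2e1, Cyp2d22 and Cyp2u1 had no knockout above a control, and Cyp4b1 and Cyp1b1 were lowest in control replicate 2 (blue squares), where the other 10 genes were highest.

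In the other fat genes the knockouts overlapped control replicates 1 and 3, and control replicate 2 was highest. Cyp4v3, a fatty acid omega-hydroxylase, had 98.4, 96.9 and 112 CPM in knockouts, 76.5 and 98.8 CPM in control replicates 1 and 3, and 647 CPM in control replicate 2. Cyp27a1, the mitochondrial sterol 27-hydroxylase of bile acid synthesis that macrophages also express, had 31.5, 41.95 and 69.0 CPM in knockouts and 42.6, 745 and 78.4 CPM in controls. Cyp2j6, an arachidonic acid epoxygenase, had 22.2, 20.8 and 34.6 CPM in knockouts and 27.0, 188 and 36.5 CPM in controls. These 3 enzymes act on fatty acids or sterols, and control replicate 2 stood far above the other 5 libraries in each. Cyp4f13, of the family that hydroxylates leukotrienes, had 17.9 to 22.8 CPM in knockouts and 19.8, 76.1 and 19.0 CPM in controls. Cyp2r1, a vitamin D 25-hydroxylase, had 4.05, 2.42 and 2.37 CPM in knockouts and 2.81, 28.1 and 4.80 CPM in controls. Cyp39a1, an oxysterol 7-alpha-hydroxylase, had 3.43, 3.47 and 5.12 CPM in knockouts and 1.61, 35.8 and 4.44 CPM in controls. Their log2 fold changes were -0.93 (Cyp4f13) to -2.60 (Cyp27a1) with all 6 libraries. Leaving it out placed them between -0.36 (Cyp2r1) and 0.42 (Cyp39a1), with SEs of 0.23 to 0.55. Cyp4v3, Cyp4f13 and Cyp39a1 changed sign. An exon of Cyp4v3 is shared with the gene model Gm45753 on the same strand.

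Cyp2c70, which makes the muricholic acids of the mouse, met the rule for a fat gene with 48, 159 and 25 counts in knockouts and 21 and 1049 in control replicates 1 and 3. Its count in control replicate 2 was 13321, and in no fat library with little Alb did it exceed 1.57 CPM. At 30 counts in place of 10 it left the fat genes and the other 11 stayed.

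The 13 intermediate genes had 10 or more counts in some but not all of the libraries with little Alb. Cyp2a5, Cyp2c37, Cyp2f2, Cyp3a11, Cyp3a13, Cyp4a10 and Cyp8b1 reached 10 there only in knockout replicate 3, where Alb had 1483 counts. In family 1, Cyp1a1, the classic Ahr target, had 8 to 16 counts in the 3 knockout libraries and 14, 28 and 27 in the controls. Cyp2b10, the classic target of the receptor CAR, had 9, 10 and 45 counts, and 56, 40 and 36 in control replicates 1 to 3. These 2 genes showed no excess in control replicate 2 of the size seen in the others: Cyp2b10 stood at 2.10 CPM in control replicate 1 and 3.58 CPM in control replicate 2.

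Cyp2c44, an arachidonic acid epoxygenase, had 80, 94 and 48 counts in the knockout libraries and 8, 4004 and 278 in those of the controls. Cyp7b1, an oxysterol 7-alpha-hydroxylase, had 42, 86 and 48 counts, and 9, 4461 and 283 in control replicates 1 to 3. In both genes the 3 knockouts were above control replicate 1, and below the controls that held more Alb. Their log2 fold changes were -5.56 (SE 2.21) and -6.03 (SE 2.29) with all 6 libraries and -0.99 (SE 1.17) and -1.33 (SE 1.17) without control replicate 2, with no adjusted p under 0.560 by edgeR.

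The other intermediate genes were highest in control replicate 2, then in control replicate 3, then in knockout replicate 2. Among the enzymes of drugs and steroids, Cyp3a11, the main inducible P450 of mouse liver and a PXR target, had 2374 CPM in control replicate 2, 59.95 CPM in control replicate 3 and 20.7 CPM in knockout replicate 2. Cyp2a5, the coumarin hydroxylase, had 1739, 30.3 and 18.5 CPM in those 3 libraries in the same order, and Cyp2d26 had 1335, 65.0 and 12.0 CPM. Cyp2f2, known from the lung and liver, had 745, 41.6 and 6.49 CPM, Cyp2c37 had 508, 23.0 and 8.70 CPM, and Cyp3a13 had 438, 16.7 and 2.42 CPM. None of these 6 genes exceeded 1.28 CPM in knockout replicates 1 and 3 or control replicate 1. Cyp4a10, a fatty acid omega-hydroxylase and PPAR-alpha target, had 1260, 33.4 and 8.91 CPM in the same 3 libraries, and Cyp4f14 had 452, 12.5 and 2.63 CPM. Cyp8b1, the sterol 12-alpha-hydroxylase that sets the share of cholic acid, had 221, 7.44 and 1.61 CPM. These 3 were at 0.737 CPM or less in knockout replicates 1 and 3 and control replicate 1.

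The 25 liver-only genes together took 0.791% of the counts of control replicate 2, 0.0545% of control replicate 3 and 0.0144% of knockout replicate 2. They took 4.717e-05%, 0.000299% and 4.408e-05% of knockout replicates 1 and 3 and control replicate 1. Of the 25, 21 were at 0 in knockout replicate 1, 10 in knockout replicate 3 and 23 in control replicate 1, where the highest counts were 8, 9 and 7, and a count of 0 allows up to 3 counts. Among drug and steroid enzymes, Cyp2d9, a steroid 16-alpha-hydroxylase, had 27323 counts in control replicate 2 and 1819 in control replicate 3. It had 462 in knockout replicate 2, and 1, 8 and 0 in knockout replicates 1 and 3 and control replicate 1. Cyp1a2, the caffeine-metabolising Ahr target, had 7952, 435 and 138 counts in the 3 libraries with Alb in the same order, and 0, 1 and 0 in the others. Per length, Cyp2d9 had 861 FPKM, Cyp2d10 693 FPKM and Cyp2d40 136 FPKM in control replicate 2. In subfamily 2C the highest were Cyp2c29 (482 FPKM), Cyp2c50 (392 FPKM) and Cyp2c67 (194 FPKM). In the same library Cyp3a25 had 568 FPKM, Cyp3a59 29.5 FPKM, Cyp2j5 476 FPKM, Cyp2a12 289 FPKM, Cyp2b9 5.04 FPKM and Cyp2a4 2.31 FPKM. The fatty acid omega-hydroxylases Cyp4a14, Cyp4a12a and Cyp4a12b had 360, 168 and 109 FPKM. Cyp7a1, the rate-limiting enzyme of bile acid synthesis, had 40.9 FPKM there, with 2036 counts, against 78 counts in control replicate 3, 36 in knockout replicate 2 and 0 in each of the other 3 libraries. The remaining 8 genes, Cyp2c38, Cyp2c39, Cyp2c40, Cyp2c54, Cyp2c55, Cyp2c68, Cyp2c69 and Cyp4f15, had 1.14 to 170 FPKM.

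Several of these genes are known to differ between male and female mouse liver. Cyp2d9 and Cyp4a12a, known as male-predominant, had 27323 and 4859 counts in control replicate 2. Cyp3a41a and Cyp3a44, known as female-predominant, had 0 and 4 counts there, and Cyp3a16 had 0. Cyp3a41a shares 1983 of its 2011 distinct stretches of 50 bases with other transcripts, so its count of 0 is uncertain. Cyp2b9 and Cyp2a4, which also vary with sex, had 113 and 48 counts there. These genes were named after their values were seen, and the sex of the mice was not tested.

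Because Alb spanned the libraries so widely, each count of control replicate 2 was multiplied by the ratio of Alb counts to give an albumin-scaled count, and the observed count was divided by it. In control replicate 3 the median of this ratio was 1.25 over the 30 liver-only and intermediate genes with at least 200 counts in control replicate 2, from 0.547 (Cyp4a12b) to 3.11 (Cyp2c38). The 19 hepatocyte markers other than Alb had a median of 1.56, from 0.818 (Ttr) to 4.16 (Tat). In knockout replicate 2 the 30 genes had a median of 1.64, from 1.06 (Cyp2j5) to 4.93 (Cyp2c38), and the hepatocyte markers a median of 1.496, from 0.823 (Uox) to 2.93 (Tat). A ratio above 2 was found for 2 of the 30 P450 genes and 2 of the 19 markers in control replicate 3, and for 9 of 30 and 1 of 19 in knockout replicate 2. The 30 genes were chosen by their counts in control replicate 2, where they were high, and no test was made. In knockout replicate 3, where Alb had 1483 counts, their ratio ran from 0 (Cyp2c38) to 13.4 (Cyp2c44) with a median of 0.704, and it was below 0.5 for 9 of them and above 2 for 7. The markers there had a median of 1.15, from 0.232 (Cps1) to 2.61 (Serpina1a), with 2 of 19 below 0.5 and 3 above 2.

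Some genes of low count in control replicate 2 stood outside that range, in both directions. Cyp2b9 had 113 counts in control replicate 2, 93 in control replicate 3 against an albumin-scaled 7.19, and 33 in knockout replicate 2 against 1.27. Cyp2a4 had 48, 33 and 7 counts in these libraries against albumin-scaled 3.06 and 0.539 in the latter 2. Both are known to vary with sex and hormones in mouse liver. Cyp2a4 shares 642 of its 1689 distinct stretches of 50 bases with other transcripts, so that reads of its relatives may enter its count. Cyp2c40 had 3 counts in control replicate 3 against an albumin-scaled 9.36, but 15 in knockout replicate 2 against 1.65. Cyp2c55 had 8 counts against 3.44 in the former and 0 against 0.606 in the latter. Cyp2c69 had 1 count against 1.53 in control replicate 3 and 0 in knockout replicate 2, too few to place.

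**Figure D3:**
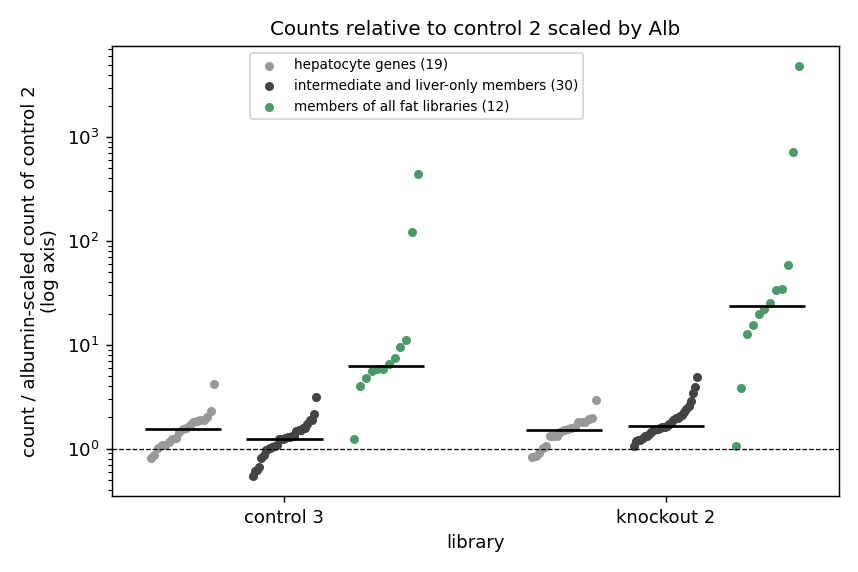
Observed count divided by the count of control replicate 2 scaled by Alb (log axis), in control replicate 3 and knockout replicate 2, for 19 hepatocyte markers, 30 intermediate and liver-only P450 genes and the 12 fat genes. Bars are medians and the dashed line is 1. The medians of the first 2 sets lie between 1.25 and 1.64, and most fat genes lie higher, with some overlap.

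Most fat genes stood above the albumin-scaled count in the same libraries. For Cyp2e1 the ratio was 5.59 in control replicate 3, with 67388 counts against 12070, and 3.83 in knockout replicate 2, with 8143 against 2127. For Cyp2d22 it was 5.88 and 15.7. For Cyp1b1 and Cyp4b1, low in control replicate 2, it was 438.5 and 122.5 in control replicate 3. Cyp2c70 alone among the 12 had ratios near 1 in both, 1.24 and 1.06.

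All 53 genes together took 0.0578%, 0.106% and 0.266% of the counts of knockout replicates 1 to 3 and 0.845%, 2.47% and 0.419% of control replicates 1 to 3. Every control was above every knockout, and the difference of the means was -1.1 percentage points (0.143% against 1.24%, exact two-sided permutation test, p = 0.1, the smallest this design allows). Without control replicate 2 the difference was -0.489 percentage points (exact permutation test, p = 0.2, the smallest that 3 against 2 libraries allow). Cyp2e1 alone held 24.4%, 33.6% and 80.2% of these counts in knockouts and 93.9%, 38.2% and 66.4% in controls. Without Cyp2e1 the other 52 genes took 0.0437%, 0.0705% and 0.0527% in knockouts and 0.0520%, 1.52% and 0.141% in controls. The groups then overlapped (exact permutation test, p = 0.3), and without control replicate 2 the difference was -0.0408 percentage points (exact permutation test, p = 0.6).

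**Figure D4:**
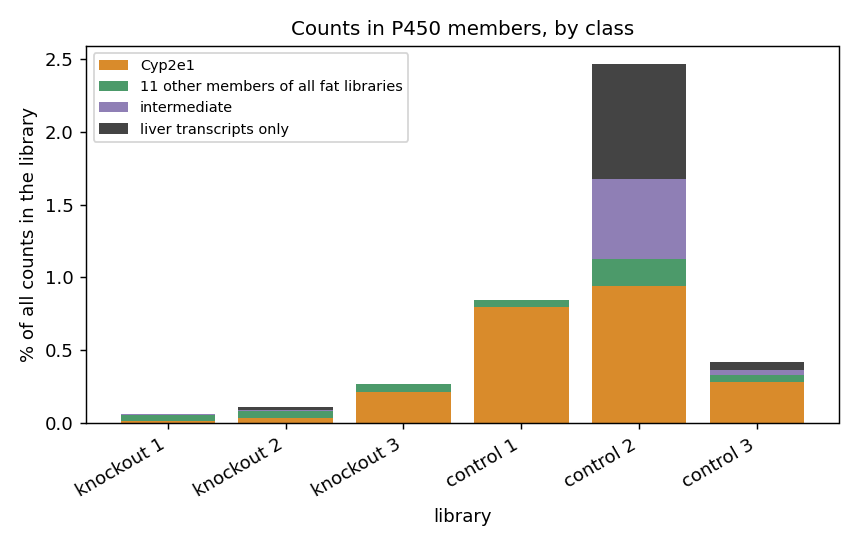
Percent of all counts of each library that fell in the P450 genes, stacked by class with Cyp2e1 apart from the 11 other fat genes. The bars reach 0.0578% to 0.266% in knockouts and 0.419% to 2.47% in controls, and the 2 liver classes are visible mainly in control replicate 2.

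Of the 53 genes, 45 passed the filter on low counts and 8 did not, which were Cyp2a4, Cyp2c39, Cyp2c40, Cyp2c55, Cyp2c69, Cyp3a16, Cyp3a41a and Cyp3a44. By edgeR's quasi-likelihood test at an adjusted p of 0.05, 0 genes passed, against 0.0% of all 15928 genes tested, and without control replicate 2 again 0 genes, against 0.0% of 16729. At an unadjusted p under 0.05, 10 of the 45 were lower in knockouts (Cyp2c44, Cyp2c70, Cyp2d22, Cyp2e1, Cyp2f2, Cyp3a13, Cyp3a59, Cyp4f14, Cyp7b1 and Cyp8b1), against 4.27% of all genes. Without control replicate 2 only Cyp2d22 was, 1 of 45 against 3.5%, so the count rested on that library. No P450 gene was higher at that level in either set, against 4.38% and 5.46% of all genes. DESeq2 called 4 genes lower with all 6 libraries (Cyp2d22, Cyp2e1, Cyp2f2 and Cyp3a13), against 1.6% of the genes it tested, and 1 without control replicate 2 (Cyp2d22), against 0.724%. With all 6 libraries DESeq2 gave no adjusted p for 348 of the 15928 genes. Many of the 45 were among them, for example Cyp1a2, Cyp2c70, Cyp2d9, Cyp3a11 and Cyp7a1, so these could not be called. The 4 calls therefore came from fewer than 45 genes. Without control replicate 2 DESeq2 gave no adjusted p for 983 of the 16729 genes, among them Cyp2c29 and Cyp3a59. Groups did not overlap in CPM, with the knockouts below, in 3 of the 45 genes, against 5.61% of all genes. With the knockouts above this held for none, against 9.54%.

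Fold changes were below 0 for 43 of the 45 genes with all 6 libraries and for 41 without control replicate 2. Over the 45 genes the median log2 fold change was -6.59 with all 6 and -2.07 without control replicate 2, beside -0.03 and -0.04 over all genes tested. Of the 12 fat genes 10 were below 0, and 8 were without control replicate 2. The 13 intermediate and 20 tested liver-only genes were below 0 in both fits. These 2 classes were defined with the libraries that hold Alb, 2 of which are controls, so this direction is given as a description and supports nothing.

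**Figure D5:**
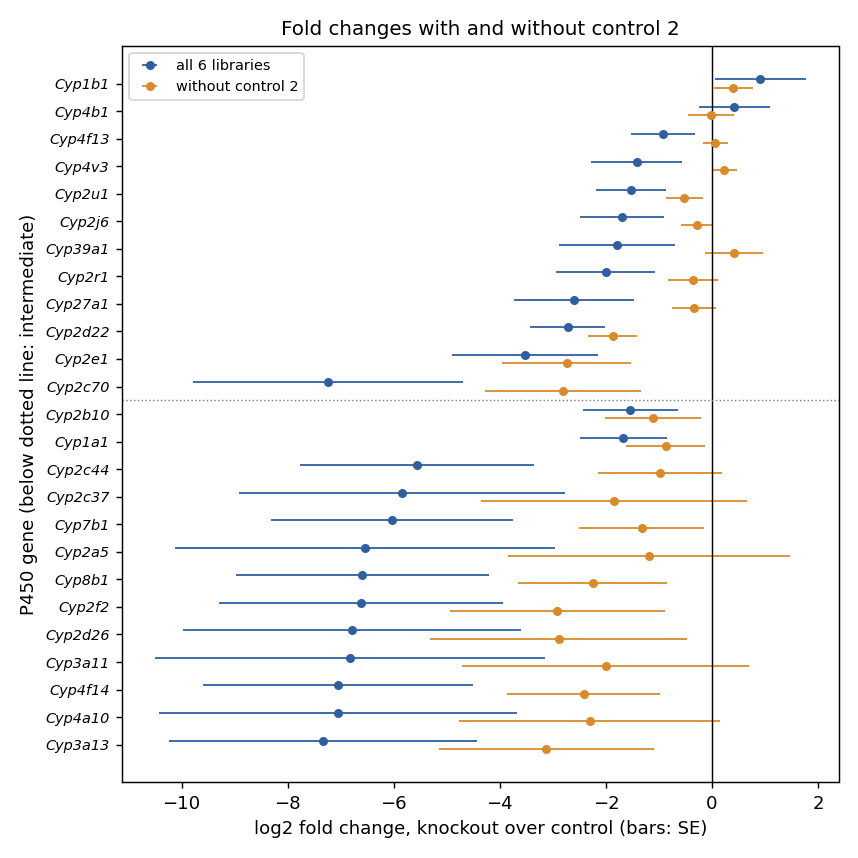
log2 fold change, knockout over control, with SE bars from edgeR, for the 12 fat genes (above the dotted line) and 13 intermediate genes (below it), with all 6 libraries (blue) and without control replicate 2 (orange). Leaving out control replicate 2 moved every intermediate gene toward 0, and left Cyp2d22 as the fat gene farthest from 0 relative to its SE.

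Genes that work with the P450 enzymes were read from the same fit. Over all genes tested, 4.27% were lower and 4.38% higher at an unadjusted p under 0.05 with all 6 libraries, and 3.5% and 5.46% without control replicate 2, which is the background for the counts of each list here. Of 16 genes for electron supply and heme, 3 were lower at an unadjusted p under 0.05 with all 6 libraries and 0 without control replicate 2, and 0 were higher in either. Their median log2 fold changes were -1.01 and -0.34. Por had 224, 241 and 396 CPM in knockouts and 356, 913 and 308 CPM in controls. Cyb5a, cytochrome b5, had 270, 204 and 608 CPM in knockouts and 714, 2358 and 409 CPM in controls. Both overlapped between groups. Fech, which inserts iron into heme, had 82.3, 63.9 and 98.8 CPM in knockouts and 189, 279 and 95.6 CPM in controls. Pgrmc1, a heme-binding partner of P450 enzymes, had 149 to 209 CPM in knockouts and 288, 2626 and 238 CPM in controls. Hmox1, which degrades heme, and Cyb5b overlapped between groups, with log2 fold changes of 0.50 (SE 0.64) and 0.07 (SE 0.50), and of 0.34 (SE 0.71) and 0.31 (SE 0.41) without control replicate 2.

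Of 26 tested receptors and factors that control P450 genes, 7 were lower at an unadjusted p under 0.05 with all 6 libraries and 3 without control replicate 2, and 0 and 1 were higher. Ppara had 1.14, 1.12 and 1.13 CPM in knockouts and 3.82, 55.1 and 5.94 CPM in controls, with no overlap between groups. Its log2 fold change was -4.25 (SE 1.14, adjusted p = 0.560) and, without control replicate 2, -2.09 (SE 0.43, adjusted p = 0.540), both by edgeR. By DESeq2 its adjusted p was 0.00505 and 0.00217. Nr1h4 had 0.686, 1.16 and 0.815 CPM in knockouts and 0.562, 217 and 5.98 CPM in controls. Nr1i2 was at 0.947 CPM or less in all knockouts and at 0.150, 157 and 4.47 CPM in controls. Nr1i3 was at most 11.9 CPM in any library and was not tested. These 3 receptors of the liver followed Alb over the libraries, whereas Ahr had 8.11 to 14.8 CPM in knockouts and 8.80, 45.6 and 13.1 CPM in controls. Bcl6, a repressor, had 32.5 to 42.1 CPM in knockouts and 12.3, 7.16 and 29.9 CPM in controls, but did not pass. Its log2 fold change was 1.12 (SE 0.54, adjusted p = 0.567 by edgeR), and 0.78 (SE 0.40, adjusted p = 0.598 by edgeR) without control replicate 2. Stat5a overlapped between groups, with log2 fold changes of 0.27 (SE 0.49) and -0.08 (SE 0.29). The 1 factor counted as higher without control replicate 2 was Cebpb, a C/EBP factor, with a log2 fold change of 1.27 (SE 0.29, adjusted p = 0.540 by edgeR).

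Of 30 tested conjugation and drug-handling enzymes, 9 were lower at an unadjusted p under 0.05 with all 6 libraries and 7 without control replicate 2, and 0 were higher in either. Their median log2 fold change was -2.58 and -1.10. Ces1f, a carboxylesterase, had 23.6, 15.9 and 43.1 CPM in knockouts and 67.0, 886 and 66.3 CPM in controls, without overlap, and Aox3, an aldehyde oxidase, had 2.45 to 4.81 CPM in knockouts and 2.96, 280 and 19.2 CPM in controls. Of 13 tested bile acid partner genes, 3 were lower with all 6 libraries and 0 without control replicate 2, and 0 were higher. Acox2, of peroxisomal side-chain oxidation, had 0.877 CPM or less in knockouts and 0.674, 305 and 12.4 CPM in controls, and Amacr had 9.65 to 20.8 CPM in knockouts and 13.9, 324 and 24.3 CPM in controls.

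Of 17 tested P450 genes outside the 53, 11 had a fold change above 0, 2 were higher and 2 lower at an unadjusted p under 0.05, and the median was 0.23. With control replicate 2 left out, 9 of 18 were above 0, 3 were higher and 1 lower, with a median of 0.06. Tbxas1, the thromboxane synthase of platelets and macrophages, had 57.9, 66.8 and 12.8 CPM in knockouts and 10.1, 3.04 and 9.50 CPM in controls, without overlap. Cyp4f39 had 1.41, 1.72 and 0.582 CPM in knockouts and at most 0.183 CPM in controls. Cyp4f17 had 7.06, 6.17 and 7.53 CPM in knockouts and 16.2, 10.1 and 11.7 CPM in controls, and Cyp4a32 had 0.262 to 2.02 CPM in 5 libraries and far more in control replicate 2. By edgeR none of these passed, with an adjusted p of 0.560 for each. By DESeq2 Tbxas1 passed in both sets, with an adjusted p of 0.0339 with all 6 libraries and 0.0413 without control replicate 2, and edgeR's log2 fold changes for it were 2.60 (SE 0.75) and 2.25 (SE 0.72). Cyp4f39 passed too, with 0.0221 and 0.0492 by DESeq2 and log2 fold changes of 3.60 (SE 1.01) and 3.24 (SE 0.90) by edgeR. DESeq2 called 1.77% and 2.26% of the genes it tested higher in these sets. Cyp4f17 had 0.138 and 0.0638 by DESeq2.

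The counting can split reads between close relatives. Of the 53 transcripts, 20 shared at least 20% of their distinct stretches of 50 bases with another transcript, 23 shared under 5%, of which 11 shared none, and the other 10 lay between. Cyp3a41a shared 1983 of 2011, Cyp2c40 1265 of 1754, and Cyp4a12a and Cyp4a12b 1160 of 2373 and 1160 of 2346, so their counts are uncertain. Cyp2e1 shared 85 of 1784 and Cyp2d22 167 of 2720.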

How the data were processed

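RNA sequencing counts of 6 mouse libraries, 3 knockout and 3 control, were used. Reads were processed by the authors on build mm10 with featureCounts 1.5.0-p3, StringTie 1.3.3b, HISAT2 2.0.5 and fastp, per the submitters' processing notes. The strand setting is not given in the sources used here, nor is the annotation release. The authors deposited raw counts per gene, used for all tests, and FPKM values, used for levels per length within a library and for alternatives. The printed coordinates and the distances to the start come from the RefSeq windows. Transcripts and overlapping exons come from GENCODE vM21 on GRCm38, the assembly of mm10. The 2 sources differ for some genes: GENCODE begins Cyp2e1 at 140763739 and Cyp2a4 at 26307169, inside their printed stretches.

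Genes kept by filterByExpr were tested with edgeR 4.0.16 (R 4.3.3, TMM, robust quasi-likelihood, Benjamini-Hochberg over all genes tested). Each SE is the absolute log2 fold change divided by the square root of F. DESeq2 1.42.0, limma 3.58.1 (voom, and log2(FPKM + 1) or log2(FPKM + 0.1)), other filters and left-out libraries were alternatives. Replicate pairs differed with chi-square per degree of freedom of 62.4 to 1235, more than a library sequenced again would give. This does not show that each library came from a separate animal. Promoters were searched for letters on both strands. Figures were drawn with matplotlib 3.10.9.

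The members, lists, motifs and tests were chosen with earlier results of these data known. Named are all fat and intermediate members, the 3 liver-only members of highest FPKM per role, tissue, electron donor and receptor references, and the 2 genes of smallest p per direction of each list, and exceptions are stated.

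On counts simulated from these libraries with all 6, edgeR called 0 of 48, 0 of 44, 1 of 46 and 0 of 45 genes changed 2-, 4-, 8- and 16-fold, among 15407 genes fitted. DESeq2 called 2, 7, 33 and 38, with 82 of 15224 unchanged genes. Without control replicate 2 (16173 genes), edgeR called 0 of 48, 6 of 49, 30 of 46 and 37 of 49, with 17 of 15981 unchanged genes, and DESeq2 2, 26, 40 and 39, with 79 unchanged ones. Apart from the set changes, each gene was drawn independently around a mean common to all libraries. The joint shift of liver genes in some libraries was therefore not simulated, and these rates may not hold for the real counts.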

Additional observations from a re-analysis of the deposited data

How the results depend on the processing

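By edgeR no gene was called under DESeq2's size factors, no filter, or any single library left out (0 for all genes and for the P450 genes, lowest and highest), and none by limma-voom or on FPKM. DESeq2 called 525 genes, 4 of them P450 genes, and without control replicate 2 (added after the data were seen) 470 genes, 1 of them a P450 gene. Leaving out control replicates 2 and 3 and knockout replicate 2 gave 18 calls and no P450 gene, with 1 control left that is assumed to vary like the knockouts.

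The 12 fat genes, Cyp2f2 and Cyp3a13 were followed through 15 alternatives each. Cyp2f2 and Cyp3a13 were both called by DESeq2 with all 6 libraries, and the other intermediate and liver-only genes were not followed. Of these 210 alternatives 179 kept direction and side of the threshold, 5 passed it and 26 changed sign, and the cause was not tested. With each library left out in turn the log2 fold change ran from -0.0177 to 1.1426 for Cyp4b1, from -1.2458 to 0.0639 for Cyp4f13, from -1.8583 to 0.2358 for Cyp4v3 and from -2.3148 to 0.4204 for Cyp39a1, and the sign changed without control replicate 2 alone. DESeq2 without that library gave -0.02, 0.0549, 0.2263 and 0.4097. By edgeR without control replicates 2 and 3 it was 1.79 for Cyp2c70, 0.0849 for Cyp2r1, -0.40 for Cyp4b1, 0.0403 for Cyp4f13, 0.44 for Cyp4v3, 0.17 for Cyp27a1, 1.33 for Cyp39a1, 3.56 for Cyp2f2 and 1.84 for Cyp3a13. With knockout replicate 2 left out too it was 0.70 for Cyp2c70, 0.0891 for Cyp2j6, 0.21 for Cyp2r1, -0.19 for Cyp4b1, 0.0554 for Cyp4f13, 0.47 for Cyp4v3, 0.25 for Cyp27a1, 1.42 for Cyp39a1 and 1.73 for Cyp2f2. Cyp2e1, Cyp2d22, Cyp2u1 and Cyp1b1 changed sign in none of these.

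With 3 counts as seen, the fat genes were 19 and the liver-only genes 15, and with 30 counts 11 and 32. At 0.5 CPM they were 12 and 28. With knockout replicate 3 no longer required to be under 10 counts, the liver-only genes were 32. The difference in share of counts ran from -1.513 to -0.4887 percentage points with each library left out, and was -1.763 per effective library size and -0.6334 for the fat genes alone. No paired analysis was possible because the numbers in the titles are not shared between the groups and the replicate numbers used here follow record order only. Genes under 10 counts in fat are not resolved at this depth.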
